A study of Homo sapiens with 12 samples.

Results

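Cells take up cholesterol in lipoproteins, free it in the lysosome, carry it between membranes and store the excess as esters. This account follows 8 genes of that route, MYLIP, SCARB1, LIPG, LIPA, NPC1, NPC2, STARD4 and SOAT1. They were chosen by name for their place in it, with earlier results of these data known. The 8 genes are 8 of the 19251 listed genes, and each was among the 17616 genes that passed the filter on low values. RNA was sequenced from CAOV3, labelled an epithelial ovarian cancer line of high grade serous type, and TOV21G, labelled an epithelial ovarian cancer line of clear cell type, both given as wild type. For each line, 3 control libraries came from cells with no treatment and 3 from cells exposed for 16 h to 10% ovarian cancer ascites, an abdominal fluid that builds up with this cancer. Each well of every group started with 250000 cells and held 1.5 mL of medium with 10% serum, so the control cells too had serum lipoproteins. The ascites was added as 150 µL, no addition to the control wells is described, and the donors of the ascites are not described. Each tumour type is represented by 1 line. The labels do not say whether the 3 libraries of a group came from separate cultures, so the p-values measure the spread between these libraries, which may be technical.

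Marker genes matched the labels of the lines only in part. The libraries held between 26697609 and 34491304 reads over the listed genes. PAX8, a factor of Müllerian epithelium, averaged 19.1 normalised counts in untreated CAOV3 against 7032 in untreated TOV21G. WT1 and MUC16, markers of serous tumours, averaged 4.59 and 12 normalised counts in untreated CAOV3, so these serous markers were low in the line labelled serous. The 6 epithelial markers summed to 153269.9 to 154113 normalised counts in untreated CAOV3 and to 11293 to 12749 in untreated TOV21G, where CDH1 averaged 13.3.

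Cholesterol arrives in lipoproteins, which bind receptors at the surface. The lysosomal acid lipase splits their cholesteryl esters, NPC2 hands the freed sterol to NPC1 for export, and soluble carriers such as STARD4 move it to the endoplasmic reticulum. There, the sterol level sets the activity of SREBP2, the factor that turns on the genes of cholesterol synthesis and uptake, and SOAT1 turns excess sterol back into esters. Oxidised sterols activate LXR, a nuclear receptor whose targets include MYLIP and the efflux pumps.

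The promoters are shown for STARD4 and LIPG, the members that fell with ascites in both lines, and for SOAT1, whose level moved least with ascites in CAOV3. Each window runs from 250 bases before to 50 bases after the RefSeq start (GRCh38.p14), and capitals mark CCAAT boxes (CCAAT or its reverse complement) and GC boxes (GGGCGG or its reverse complement).
STARD4, chr5:111512486-111512785, minus strand: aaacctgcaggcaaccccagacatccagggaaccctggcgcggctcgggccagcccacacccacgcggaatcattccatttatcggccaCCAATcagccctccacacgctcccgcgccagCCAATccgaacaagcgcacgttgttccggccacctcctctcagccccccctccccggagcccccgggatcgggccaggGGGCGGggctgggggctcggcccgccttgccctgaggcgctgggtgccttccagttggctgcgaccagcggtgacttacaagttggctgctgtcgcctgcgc
LIPG, chr18:49561807-49562106, plus strand: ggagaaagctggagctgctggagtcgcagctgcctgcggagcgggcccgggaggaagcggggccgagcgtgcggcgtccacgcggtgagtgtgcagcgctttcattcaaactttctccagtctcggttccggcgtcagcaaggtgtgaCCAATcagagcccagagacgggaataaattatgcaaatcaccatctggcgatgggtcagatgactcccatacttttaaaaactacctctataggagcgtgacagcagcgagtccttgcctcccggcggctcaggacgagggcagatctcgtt
SOAT1, chr1:179293547-179293846, plus strand: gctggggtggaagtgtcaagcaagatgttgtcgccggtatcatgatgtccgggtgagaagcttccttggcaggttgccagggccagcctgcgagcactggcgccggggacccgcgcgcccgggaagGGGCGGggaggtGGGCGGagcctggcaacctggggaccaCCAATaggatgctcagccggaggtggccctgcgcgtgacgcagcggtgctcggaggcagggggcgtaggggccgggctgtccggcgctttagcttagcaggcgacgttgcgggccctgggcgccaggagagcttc

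In these 300 bases STARD4 had CCAAT 161 and 130 bases before the start and GGGCGG 52 bases before it. LIPG had CCAAT 102 bases before the start and no GC box, and SOAT1 had CCAAT 85 bases before the start and GGGCGG 124 and 112 bases before it. The LIPG window lies downstream of the gene's first base in GENCODE release 29, since the annotations start its transcripts at different places. The GC content was 69% in STARD4, 58.7% in LIPG and 69.7% in SOAT1. Windows were found for 7 of the 8 genes, all but SCARB1: 3 for LIPA, 2 for NPC2 and 1 for each other gene, 10 in all. Both strands were searched for TCACCCCAC, a core of the sterol regulatory element that SREBP2 binds, for its looser form TCACNCCAC, for TCACGTGA, the core of the CLEAR element of lysosomal genes, and for the E-box CACGTG, which lies within the CLEAR core. None of the 10 windows held any of these 4 motifs, which 0.43%, 1.13%, 0.98% and 7.26% of 35116 promoters of the same length held. CCAAT was in 7 of the 10 windows and in 34.6% of all promoters, and GGGCGG was in 8 of the 10 and in 45% of all promoters. The 10 are not independent, since those of NPC2 overlap. A motif missing here says only that these letters are not in this window.

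With ascites, LIPG and STARD4 fell in both lines, and none of the 8 genes was called higher in either by limma, edgeR or DESeq2. LIPG encodes endothelial lipase, a secreted enzyme that cuts phospholipids of high density lipoproteins, and STARD4 a soluble sterol carrier. In CAOV3 2 of the 8 genes were called, both lower, where a call is an adjusted p under 0.05 (limma, Benjamini-Hochberg over the 17616 genes); over all genes 1.73% were called in this comparison, 1.1% lower and 0.636% higher. In TOV21G 2 of the 8 were called, both lower, against 0.409% of all genes, 0.267% lower and 0.142% higher. At an unadjusted p under 0.05 there were 3 of the 8 in CAOV3, against 12.9% of all genes, and 3 in TOV21G, against 9.17%. The CAOV3 ascites libraries lay outside the range of the controls for 2 of the 8 genes, both times below it, against 24.2% of all genes on either side and 12.8% below. In TOV21G they did so for 3 of the 8, all below, against 11.1% on either side and 6.99% below. The median log2 difference of the 8 was -0.00 in CAOV3 and -0.09 in TOV21G, and over all tested genes it was -0.00 and -0.02. In these bulk samples, fewer cells that express a gene and less RNA of it per cell cannot be told apart.

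**Figure D1:**
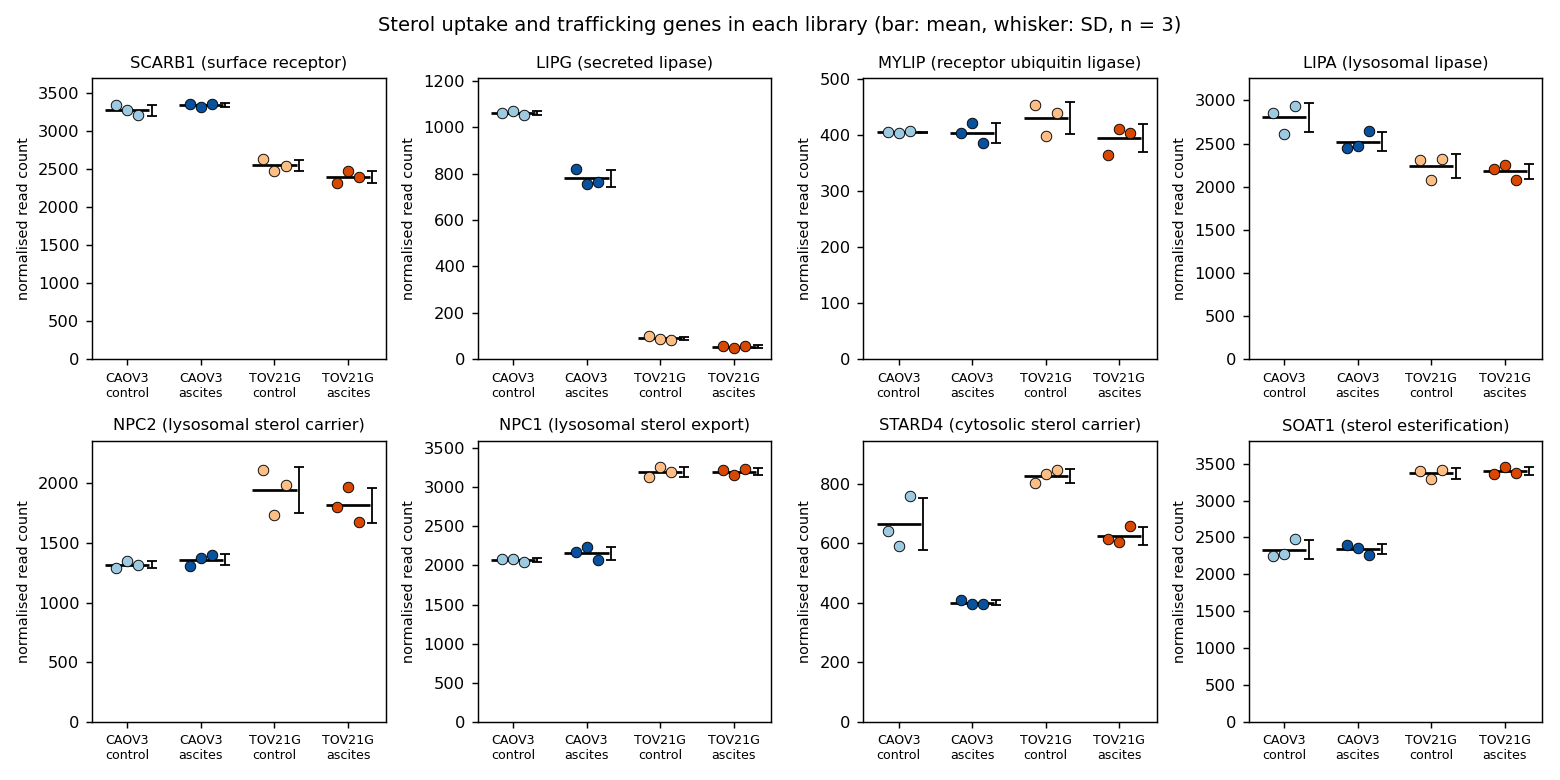
Normalised read count of each of the 8 genes in each library (points), by line and treatment, with the mean as a bar and the SD as a whisker (n = 3 libraries). Only for LIPG and STARD4 do the ascites points lie clearly below the control points of the same line, and LIPG is far lower in TOV21G than in CAOV3.

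SCARB1 is the surface receptor that takes up cholesteryl esters from high density lipoproteins. Its normalised counts in CAOV3 were 3340.0, 3266 and 3201 in the controls and 3356, 3312 and 3348 with ascites. The groups overlapped, and the log2 difference was 0.03 ± 0.04 (SE), with an adjusted p of 0.806 (limma). In TOV21G they were 2625, 2477 and 2531 in the controls and 2312, 2477 and 2387 with ascites. The groups were separate by less than 1 count, 2477.37 in the lowest control against 2476.91 in the highest ascites library. The log2 difference of -0.09 ± 0.04 did not pass the test (limma adjusted p = 0.495), and its 95% interval ran from -0.17 to -0.01. SCARB1 lies on chromosome 12, 124776856 to 124882668, minus strand (ENSG00000073060), as all positions here from GENCODE release 29 on GRCh38.

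LIPG (ENSG00000101670, chromosome 18, 49560699 to 49599182, plus strand) was lower in every ascites library than in every control of the same line. In CAOV3 it had 1063, 1069 and 1052 normalised counts in the controls and 820.5, 754 and 766 with ascites. The means were 1062 ± 8.73 and 780.1 ± 35.5 (SD, n = 3), a log2 difference of -0.44 ± 0.09 (SE), or -26.5%, with an adjusted p of 0.0227 (limma). In TOV21G, where it was scarce, it had 97.6, 88.1 and 80.8 in the controls and 56.3, 48.7 and 57.3 with ascites. The means of 88.8 ± 8.43 and 54.1 ± 4.71 (SD, n = 3) gave a log2 difference of -0.70 ± 0.09, or -38.6%, with an adjusted p of 0.00384 (limma). The TOV21G values rest on 84 to 90 reads per control library and 55 to 68 per ascites library. The CAOV3 call was lost in the fit without any 1 of the 6 CAOV3 libraries (adjusted p 0.0544 to 0.109), with a log2 difference of -0.42 to -0.48. The TOV21G call held without any 1 of the 12 libraries (adjusted p 0.00639 to 0.0122), but with TOV21G fitted alone the adjusted p was 0.428.

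MYLIP encodes the ubiquitin ligase that sends lipoprotein receptors to the lysosome, and it is a target of LXR. In CAOV3 its normalised counts were 405, 404 and 407 in the controls and 403, 422 and 386 with ascites. In TOV21G they were 454, 398 and 439 in the controls and 365, 411 and 404 with ascites. The groups overlapped in both lines. The log2 difference was -0.01 (95% interval -0.16 to 0.14) in CAOV3, with an adjusted p of 1 (limma). It was -0.13 (-0.28 to 0.02) in TOV21G, with an adjusted p of 0.602 (limma). MYLIP (ENSG00000007944, chromosome 6, 16129125 to 16148248, plus strand) overlaps the microRNA gene MIR4639 on the same strand.

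The lysosomal members did not pass the test in either line. LIPA, the lysosomal acid lipase, had 2852, 2616 and 2939 normalised counts in CAOV3 controls and 2443, 2475 and 2647 with ascites. Its groups overlapped, and the log2 difference of -0.15 (95% interval -0.28 to -0.03) had an adjusted p of 0.264 (limma). In TOV21G LIPA had 2308, 2074 and 2325 in the controls and 2207, 2250.4 and 2078 with ascites, a log2 difference of -0.04 (-0.16 to 0.09). LIPA (ENSG00000107798, chromosome 10, 89213569 to 89414557, minus strand) spans 6 annotated genes on the opposite strand, the interferon-induced genes IFIT1, IFIT2 and IFIT3 among them. Overlaps here are of whole gene spans, and shared exons were not looked for. The strandedness of the libraries is not given in the sources used here, so whether any of its counts belong to those genes is uncertain.

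NPC2, the soluble carrier that takes sterol from the lysosome's lumen, had 1292, 1349.9 and 1312 normalised counts in CAOV3 controls and 1309, 1374 and 1397 with ascites. In TOV21G it had 2115, 1731 and 1985 in the controls and 1801, 1969.8 and 1678 with ascites. Groups overlapped in both lines, with log2 differences of 0.05 (95% interval -0.11 to 0.20) and -0.10 (-0.25 to 0.06). NPC1, the membrane protein that receives sterol from NPC2, had 2087, 2087 and 2044 in CAOV3 controls and 2166, 2233 and 2069 with ascites. In TOV21G NPC1 had 3132, 3264 and 3199 in the controls and 3218, 3152 and 3234 with ascites. Its log2 differences were 0.06 (-0.02 to 0.14) and 0.00 (-0.08 to 0.08), so a rise of NPC1 by more than 0.14 on the log2 scale lies outside the interval in either line. NPC2 (ENSG00000119655, chromosome 14, 74476192 to 74494177, minus strand) and NPC1 (ENSG00000141458, chromosome 18, 23506184 to 23586898, minus strand) each overlap other annotated genes, 3 and 2 in number.

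STARD4 (ENSG00000164211, chromosome 5, 111496033 to 111512590, minus strand) was the member with the lowest adjusted p in CAOV3. It had 641, 592 and 760.1 normalised counts in the CAOV3 controls and 409, 395 and 397 with ascites. Every ascites library was below every control. The means were 664 ± 86.6 and 400.3 ± 7.78 (SD, n = 3), and the log2 difference was -0.72 ± 0.08 (SE), or -39.4%, with an adjusted p of 0.000293 (limma). In TOV21G STARD4 had 801, 832 and 847 in the controls and 614, 603 and 659.5 with ascites, again with no overlap. The means of 827 ± 23.5 and 625 ± 30.1 (SD, n = 3) gave a log2 difference of -0.40 ± 0.08, or -24.4%, with an adjusted p of 0.0451 (limma).

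The CAOV3 call of STARD4 held without any 1 of the 12 libraries (limma adjusted p 0.000365 to 0.00274). The TOV21G call lay near the threshold: it was lost without any 1 of the 6 TOV21G libraries (0.078 to 0.179), without CAOV3 control replicate 1 (0.0817), and without CAOV3 ascites replicate 1, 2 or 3 (0.0828, 0.0814 and 0.0864), while its log2 difference stayed between -0.38 and -0.44. It was kept without CAOV3 control replicate 2 (0.0317) or 3 (0.011), by edgeR (0.00967) and by DESeq2 (0.000442), and lost with TMM scaling (0.0741) and with TOV21G fitted alone (0.241). The span of STARD4-AS1 overlaps that of STARD4 on the opposite strand. Shared exons were not looked for and the strandedness is not given, so whether any of STARD4's counts belong to STARD4-AS1 is uncertain.

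SOAT1 makes cholesteryl esters in the endoplasmic reticulum. In CAOV3 it had 2254, 2276 and 2478 normalised counts in the controls and 2396, 2358 and 2264 with ascites. In TOV21G it had 3400.3, 3289 and 3418 in the controls and 3363, 3463 and 3372 with ascites. Groups overlapped in both lines, with log2 differences of 0.00 (95% interval -0.09 to 0.09) and 0.01 (-0.08 to 0.10). SOAT1 (ENSG00000057252, chromosome 1, 179293714 to 179358680, plus strand) overlaps no other annotated gene.

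**Figure D2:**
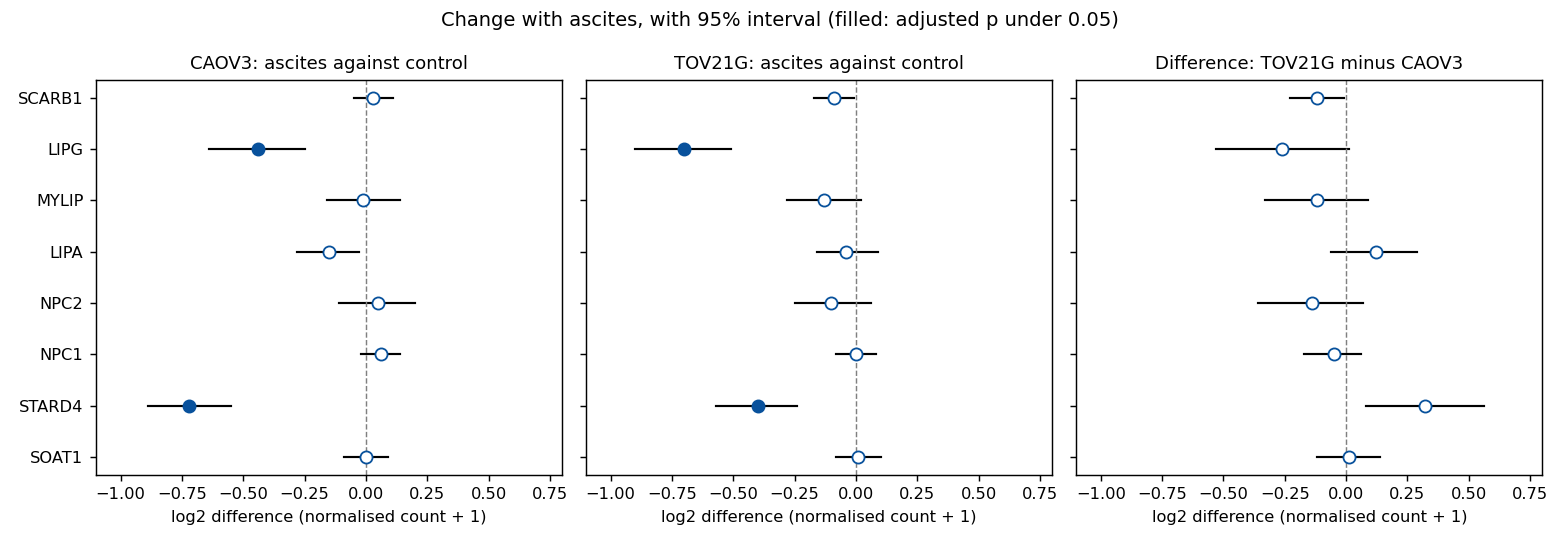
Log2 difference of each of the 8 genes, ascites minus control, in CAOV3 (left) and TOV21G (middle), and TOV21G's difference minus CAOV3's (right), each with its 95% interval; filled points have an adjusted p under 0.05. LIPG and STARD4 are the filled points in both lines, and no point is filled on the right.

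The size of the fall was compared between the lines by the interaction term of the same fit. STARD4's log2 difference was 0.32 ± 0.11 (SE) smaller in size in TOV21G, with a 95% interval of 0.08 to 0.56, and this did not pass the test (limma adjusted p = 0.303). LIPG went the other way, with a further -0.26 ± 0.13 in TOV21G (interval -0.53 to 0.01, adjusted p = 0.441 by limma). SCARB1's response differed by -0.12 ± 0.05 (limma adjusted p = 0.404). Of the 8 genes 0 were called in this comparison by limma, by edgeR or by DESeq2, against 0.545% of all genes in limma. At an unadjusted p under 0.05 there were 2, STARD4 and SCARB1, against 11.9% of all genes. No difference between the lines in the response of these genes was shown, and the intervals leave room for one, not for LIPG and STARD4 alone. The 95% interval was -0.23 to -0.01 for SCARB1, -0.36 to 0.07 for NPC2 and -0.33 to 0.09 for MYLIP.

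The untreated lines differed in the level of nearly every member, as they did over the whole transcriptome. Of the 8 genes 7 were called between TOV21G and CAOV3 controls, 4 higher and 3 lower in TOV21G, against 82.2% of all genes called, 40.8% higher and 41.4% lower. Groups did not overlap for the same number of members, 7, and for 82.6% of all genes, so the members' share is near the background. The median log2 difference, TOV21G minus CAOV3, was 0.20 over the 8 genes and -0.02 over all genes.

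The lysosomal sterol exporters and the storage enzyme were higher in TOV21G. NPC1 averaged 2073 ± 25 normalised counts in CAOV3 controls and 3198 ± 66.1 (SD, n = 3) in TOV21G controls, 1.54 times as many, with an adjusted p of 1.48e-09 (limma). NPC2 averaged 1318 ± 29.6 and 1943 ± 195, or 1.47 times as many, and SOAT1 2336 ± 124 and 3369 ± 70.2, or 1.44 times as many. STARD4 averaged 1.25 times as many in TOV21G, with an adjusted p of 0.00164 (limma). With ascites, STARD4 in TOV21G, at 625, lay near its CAOV3 control level of 664.

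The uptake side and the acid lipase were lower in TOV21G. LIPG stood apart: its TOV21G controls had 11.9 times fewer counts than its CAOV3 controls (95% interval 10.4 to 13.6), a log2 difference of -3.57 ± 0.09 with an adjusted p of 2.16e-13 (limma). SCARB1 averaged 3269 ± 69.7 in CAOV3 controls and 2545 ± 74.9 in TOV21G controls, a ratio of 0.778. LIPA averaged 2802 ± 167 and 2235 ± 140.3, a ratio of 0.798 with an adjusted p of 0.000132 (limma). MYLIP, at 405 ± 1.19 and 430 ± 28.8, was the member that did not pass (log2 difference 0.08, interval -0.07 to 0.23, adjusted p = 0.274 by limma).

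**Figure D3:**
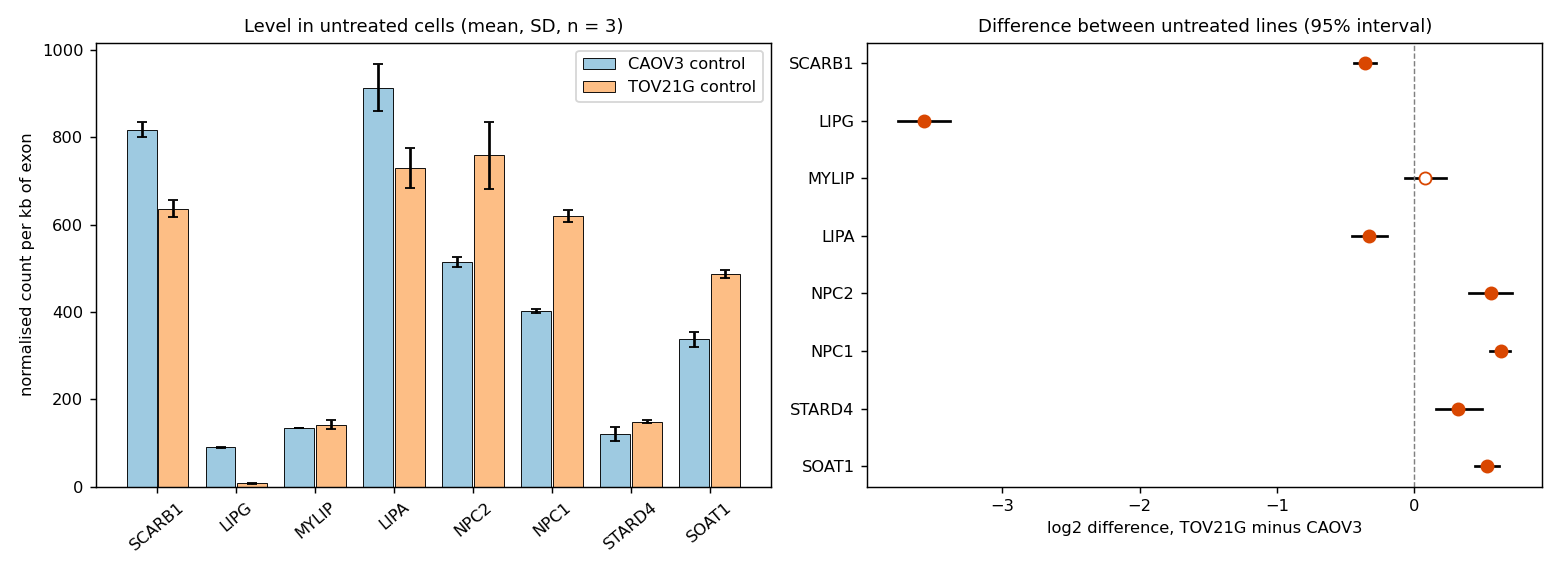
Left, level of each gene in untreated CAOV3 and TOV21G cells in normalised counts per kb of exon (bars: mean, whiskers: SD, n = 3). Right, log2 difference, TOV21G minus CAOV3 controls, with the 95% interval and filled points at an adjusted p under 0.05; LIPG lies at -3.57 and the other members between -0.36 and 0.63.

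Levels of different genes were set side by side only per kb of exon. In CAOV3 controls the order of normalised counts per kb was LIPA at 914 ± 54.6, SCARB1 at 818 ± 17.5, NPC2 at 515 ± 11.6, NPC1 at 402 ± 4.84, SOAT1 at 337 ± 17.8, MYLIP at 134 ± 0.391, STARD4 at 119.9 ± 15.6 and LIPG at 89.7 ± 0.738 (SD, n = 3). Only MYLIP and STARD4 overlapped among these neighbours. In TOV21G controls NPC2 came first at 759 ± 76.3, followed by LIPA at 729 ± 45.8, SCARB1 at 637 ± 18.7, NPC1 at 620.1 ± 12.8, SOAT1 at 487 ± 10.1, STARD4 at 149 ± 4.24, MYLIP at 142 ± 9.5 and LIPG at 7.51 ± 0.712. There NPC2 and LIPA, SCARB1 and NPC1, and STARD4 and MYLIP each overlapped. With ascites STARD4 was at 72.2 ± 1.4 per kb in CAOV3 and 113 ± 5.44 in TOV21G, and its libraries were separate from, and below, those of MYLIP in either line. The place of LIPG depends on the gene model: its exons span 11828 bases together, while its transcripts run from 1453 to 10441 bases.

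Around the members, 79 genes of 5 neighbouring lists were tested beside the genes of sterol synthesis. In CAOV3 2 of the 79 rose and 2 fell, against 0.636% and 1.1% of all genes. In TOV21G 1 was called, lower, against 0.267% of all genes called lower. Among 15 lipoprotein receptors and surface lipases limma called none in either line, with median log2 differences of -0.09 and -0.08. At an unadjusted p under 0.05 there were 5 in CAOV3, against 12.9% of all genes, and 4 in TOV21G, against 9.17%. The ascites libraries lay outside the control range for 10 of the 15 in CAOV3 and 1 in TOV21G, against 24.2% and 11.1% of all genes. Their normalised counts summed to 47364 to 48134 in CAOV3 controls and to 44193 to 45059 with ascites. For the difference between the lines 7 had an unadjusted p under 0.05, against 11.9% of all genes. EdgeR called none in either line, and DESeq2 called LRP5 lower in CAOV3 and none in TOV21G. The sterol transfer list of 24 genes holds the oxysterol-binding family, START-domain carriers other than STARD4, and further genes such as VAPA, VAPB, CAV1 and TSPO. Limma, edgeR and DESeq2 called none of the 24 in either line. By limma 4 in CAOV3 and 2 in TOV21G had an unadjusted p under 0.05, and the median was -0.04 in both lines. Of the START-domain genes among the members and this list, STARD4 was the one called in the fit of both lines. START-domain genes outside them were not looked at. With CAOV3 fitted alone limma called LRP10 higher and LRP1 and SORL1 lower among the receptors, GLA higher and SCARB2 lower among the lysosomal genes, and STARD10 lower among the transfer proteins.

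Of 20 lysosomal and membrane sterol genes, NPC1L1 was called, in CAOV3, where 1.73% of all genes were called. It encodes a relative of NPC1 that takes up sterol at the surface of intestinal cells. NPC1L1 had 69.2, 68.8 and 61.4 normalised counts in CAOV3 controls and 16.4, 18.4 and 26.6 with ascites, a log2 difference of -1.68 ± 0.21 (SE) with an adjusted p of 0.00113 (limma). These values rest on 61 to 64 and on 15 to 26 reads per library. In TOV21G its mean was 26.3 in the controls and 17.6 with ascites, with a log2 difference of -0.57 and an adjusted p of 0.446, and the difference between the lines was 1.11 with an adjusted p of 0.185 (limma). The median over the 20 genes was -0.02 in CAOV3 and -0.08 in TOV21G. In TOV21G limma, edgeR and DESeq2 called none, and 5 had an unadjusted p under 0.05 in limma, against 9.17% of all genes.

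Of 11 genes of esterification, ester hydrolysis and storage, 2 rose in CAOV3, against 0.636% of all genes. PLIN3, a coat protein of lipid droplets, rose from 3255, 3365 and 3304 to 4016, 4079.5 and 4141 normalised counts, a log2 difference of 0.30 ± 0.05 with an adjusted p of 0.0094 (limma). Its CAOV3 call was lost with the replicate number as a block (limma adjusted p = 0.104). With CAOV3 fitted alone limma called PLIN3 and PLIN2 higher in this list. In TOV21G PLIN3 had 4308, 3930.5 and 4076 in the controls and 3746, 4248 and 3667 with ascites, a log2 difference of -0.08 with an adjusted p of 0.65. The difference between the lines was -0.38 ± 0.07 with an adjusted p of 0.0394 (limma). This last call was lost without any 1 of 10 of the 12 libraries (adjusted p 0.0792 to 0.124); it held without TOV21G ascites replicate 2 or TOV21G control replicate 2.

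NCEH1, which hydrolyses cholesteryl esters outside the lysosome, rose in CAOV3 from a mean of 2005 to 2291, a log2 difference of 0.19 with an adjusted p of 0.0338 (limma). Its call was lost without any 1 of the CAOV3 libraries but control replicate 3, without TOV21G ascites replicate 1 and without TOV21G control replicate 3 (adjusted p 0.0548 to 0.145). It was also lost with CAOV3 fitted alone (limma adjusted p = 0.0682) and with the replicate number as a block (0.133). In TOV21G limma, edgeR and DESeq2 called none of the 11, and 0 had an unadjusted p under 0.05. SOAT1, the esterifying enzyme among the members, was not called with ascites in either line.

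Of 9 LXR targets and efflux genes, SREBF1 fell in both lines, where 1.1% (CAOV3) and 0.267% (TOV21G) of all genes were called lower. SREBF1 encodes SREBP1, which drives fatty acid synthesis. It went from 4772, 4648 and 4590.2 normalised counts to 3711, 3663 and 3844 in CAOV3, a log2 difference of -0.32 ± 0.04 with an adjusted p of 0.00125 (limma). In TOV21G it went from 1733, 1682 and 1659.9 to 1363, 1482 and 1351, a log2 difference of -0.27 ± 0.04 with an adjusted p of 0.0135. The TOV21G call was lost without ascites replicate 1 (0.0697), ascites replicate 3 (0.0542) or control replicate 3 (0.0508), and with TOV21G fitted alone (0.341). The other LXR targets, ABCA1 among them at 733 normalised counts in CAOV3 controls and 698 with ascites, were not called, as MYLIP was not.

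The genes of sterol synthesis driven by SREBP2 were known to fall in these data from earlier results, so their counts are background here and no separate evidence. The list of 25 genes holds them together with SREBF2 and genes that retain or process SREBP: INSIG1, INSIG2, SCAP, MBTPS1 and MBTPS2. With ascites, INSIG2, SCAP, MBTPS1 and MBTPS2 were not called by limma, edgeR or DESeq2 in either line. Of the 25, 10 fell in CAOV3, against 1.1% of all genes, with a median log2 difference of -0.22. In TOV21G 8 fell, against 0.267% of all genes, with a median of -0.18. Limma, edgeR and DESeq2 called none higher in either line. DESeq2 called 13 lower in CAOV3 and 12 in TOV21G, and with each line fitted alone limma called 12 in CAOV3 and 1, INSIG1, in TOV21G. By adjusted p the first 6 were INSIG1, HMGCS1, IDI1, SREBF2, MSMO1 and MVK in CAOV3, and INSIG1, SREBF2, IDI1, FDFT1, HMGCS1 and MSMO1 in TOV21G. INSIG1, the protein that holds SREBP in the endoplasmic reticulum, fell by 0.87 on the log2 scale in CAOV3 and fell by 0.55 in TOV21G. The falls of STARD4, by 0.72 and by 0.40, lay between those values and the medians of the list.

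**Figure D4:**
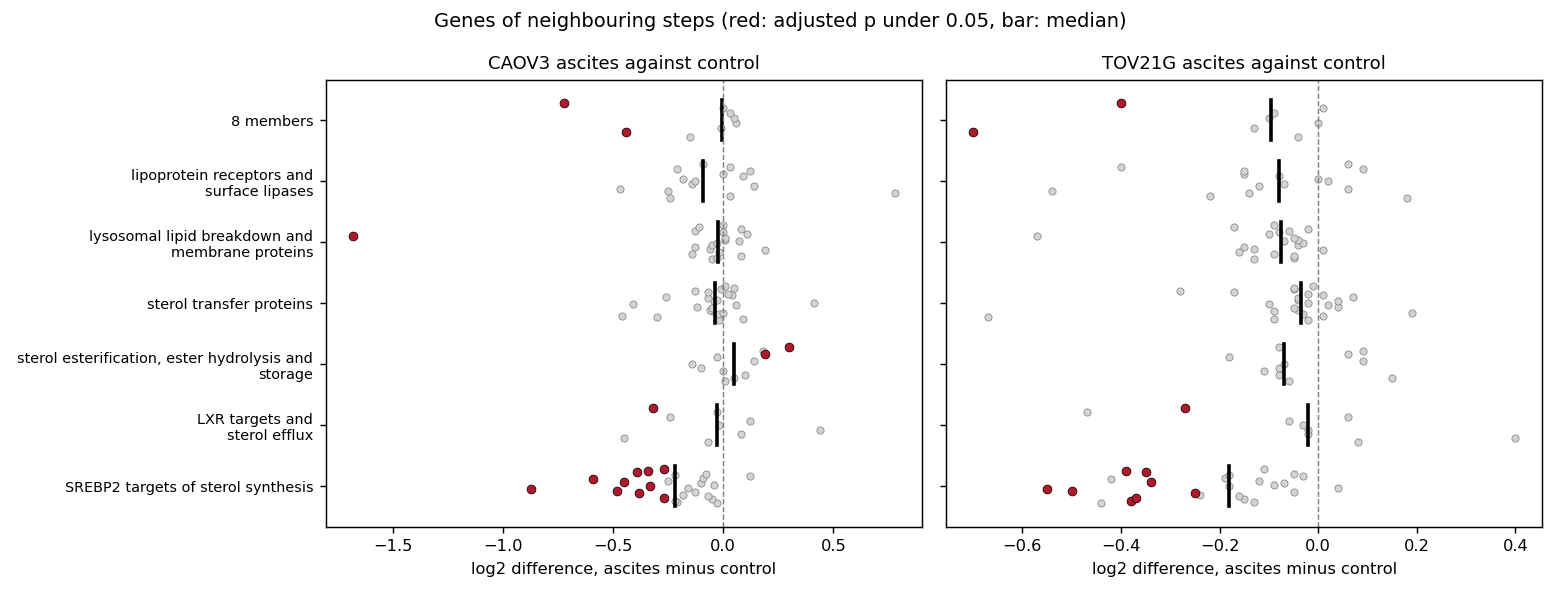
Log2 difference, ascites minus control, of every tested gene of the members and of 6 neighbouring lists (points; red at an adjusted p under 0.05; bars: list medians) in CAOV3 and TOV21G. Red points gather in the list of sterol synthesis, whose medians are -0.22 and -0.18, while receptors and transfer proteins have none.

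Over the 12 libraries, with each line's mean removed, LIPG and STARD4, both called lower with ascites in both lines, had Pearson r = 0.82. Other pairs were LIPA and NPC1 (-0.80), MYLIP and SCARB1 (0.77), SCARB1 and NPC2 (0.68) and LIPA and STARD4 (0.67). These are descriptions over libraries that share the treatment and the scaling. The genes most like STARD4 among all tested genes were INSIG1 (r = 0.970), IDH1 (0.965) and TFRC (0.956). Those most like LIPG included SCD (0.947) and SAMD11 (0.938). For the members not called with ascites, the first gene was IRX4-AS1 for MYLIP (0.894), ABCB8 for SCARB1 (0.957), SELENBP1 for LIPA (0.977), ZNF90 for NPC1 (0.930), ARPC2 for NPC2 (0.966) and IDE for SOAT1 (0.918). GSTM3 was also among those of MYLIP; next came HOXA11 and CDK5 for SCARB1, PHETA1 and HTATSF1 for LIPA, CCDC144NL and SDC2 for NPC1, GNB1 and CAP1 for NPC2, and SGO2 and RAD17 for SOAT1. With TMM scaling 3 of the 3 genes were kept for LIPA, 2 for LIPG, NPC2, STARD4 and SOAT1, 1 for SCARB1 and 0 for MYLIP and NPC1.

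In the untreated lines 16 of the 20 genes of the lysosomal list were called higher in TOV21G and 2 lower, against 40.8% and 41.4% of all genes, with a median log2 difference of 0.94. Among the lysosomal members NPC1 and NPC2 were higher there and LIPA lower. TFEB, the factor that drives lysosomal genes, averaged 34.3 normalised counts in untreated CAOV3 and 532 in untreated TOV21G. TMEM97, a membrane protein that binds NPC1, was one of the 2 that were lower, with 9148 and 1113. Of the 15 receptors and lipases 8 were higher and 6 lower, and VLDLR, a receptor of triglyceride-rich lipoproteins, averaged 319.8 and 1403. ABCA1, the pump that loads sterol onto apolipoproteins, averaged 733 and 26.6. These 4 genes were chosen after their values were seen.

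Markers of other cells in ascites were compared between groups, since fluid can carry cells. Of 8 leukocyte markers, CD14 and LYZ were measured; they summed to 117 to 134 normalised counts in CAOV3 controls and 101 to 125 with ascites, and to 8.39 to 13 and 11.6 to 20.4 in TOV21G, where LYZ was at 0 in every library. The 4 mesothelial markers summed to 62.4 to 76.2 and 47 to 68.5 in CAOV3 and to 586 to 659 and 583 to 639 in TOV21G. The 4 genes of plasma proteins made by the liver summed to 212 to 238 and 186 to 195 in CAOV3 and to 6.28 to 6.5 and 4.42 to 8.95 in TOV21G. Of 5 fibroblast markers measured, the sum was 4619.9 to 5355 and 4226 to 4437 in CAOV3 and 12548 to 13084 and 11259 to 11694 in TOV21G, and limma called COL1A2 lower in CAOV3, at 2.46 against 0.365 normalised counts (adjusted p = 0.00461). These are at most 3 reads per library, and neither edgeR (0.267) nor DESeq2 (0.314) called it. In TOV21G, where COL1A2 averaged 10854 normalised counts in the controls, DESeq2 called it lower (log2 difference -0.17, adjusted p = 0.0161). There edgeR (0.198) and limma (0.836) did not call it. Limma, edgeR and DESeq2 called no marker of these 4 lists higher with ascites in either line, and 2 of the fibroblast markers in CAOV3 were the ones with an unadjusted p under 0.05 in limma. Beside the falls of LIPG and STARD4, the leukocyte and mesothelial sums with ascites overlapped those of the controls in either line, the fibroblast sums were lower without overlap in both lines, and the sums of the liver genes were lower without overlap in CAOV3. Their part in those falls was not tested.

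Keratins among the epithelial markers rose with ascites in CAOV3 beside the falls of LIPG and STARD4. The sum of the 6 markers, most of it keratin, went from 153269.9 to 154113 normalised counts in the controls to 176985 to 187539 with ascites, and KRT18 (log2 difference 0.33, adjusted p = 0.0102 by limma) and KRT8 (0.29, adjusted p = 0.0231) rose. KRT8's call was lost without any 1 of the 6 CAOV3 libraries (0.0557 to 0.102), and KRT18's without CAOV3 ascites replicate 1 (0.0501) or 3 (0.052). DESeq2 also called KRT7 higher in CAOV3, where limma and edgeR did not. In TOV21G the sum was 11293 to 12749 and 10698 to 12301, and limma, edgeR and DESeq2 called none of the 6 markers. PAX8 was called higher with ascites in TOV21G by edgeR and DESeq2, and not by limma. CDH1, the adhesion protein of epithelia, had 455, 389 and 429.5 normalised counts in CAOV3 controls and 266, 268 and 281 with ascites, with no overlap. Its log2 difference of -0.64 ± 0.32 was not called by limma (adjusted p = 0.438) and was called lower by edgeR (0.00334) and DESeq2 (2.16e-05). The part of these markers in the falls of LIPG and STARD4 was not tested.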

How the data were processed

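Human CAOV3 and TOV21G cells gave 12 RNA-seq libraries in 4 groups of 3, as labelled. The authors deposited a normalised read count per gene (a signal that is never negative). Per the submitters' processing notes, the tools were Trim Galore, cutadapt, STAR, HTSeq and DESeq; their versions, the genome build, the library kit and strandedness are not given in the sources used here. All values (100%) were whole multiples of 1 step per library, within 0.01 reads, and the steps matched DESeq2 size factors, so whole reads were recovered for count tests. The gene with the fewest reads had 10 in its highest library.

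The main test was limma 3.58.1 (R 4.3.3; lmFit, eBayes with trend) on log2(value + 1), which understates changes of low genes. The fit took all 12 libraries with 1 mean for each group; genes needed a value of 10 in 3 libraries. Tests were two-sided and adjusted by Benjamini-Hochberg within each comparison over 17616 genes. Lengths are the union of exons of the GENCODE basic annotation. On recovered reads edgeR 4.0.16 and DESeq2 1.42.0 were alternatives. The fit was tested on simulated data. Replicates differed beyond read sampling (chi-square per degree of freedom 1.81 to 22.6). No pairing was used in the main fit, since the labels do not say that a replicate number marks a shared day or batch. Same-numbered libraries of the treatment groups did not deviate together (r from -0.332 to 0.0193). With 3 libraries a group these correlations cannot decide whether the numbers mark a pairing.

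All 8 members are named in every comparison. From each neighbouring list and comparison within a line all called genes are named, or the 6 with the smallest p where more were called, and the 3 genes most like each member by Pearson r over the 12 libraries, centred by line. Of the genes this rule names 2, and 1 lineage marker, are not reported here. Symbols came from a gene name table (19087 identifiers) and GENCODE (136); 28 had none. The members and lists were chosen with earlier results of these data known. Symbols of the lists that the files do not list were not analysed here.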

Additional observations from a re-analysis of the deposited data

Results flagged for a closer look

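Among the neighbouring genes and markers, 2 responded differently to ascites in the 2 lines by the interaction term of the limma fit. PLIN3, the lipid droplet coat protein, had a difference of -0.38 on the log2 scale (TOV21G minus CAOV3, adjusted p = 0.0394): it rose in CAOV3, where all 3 ascites libraries lay above the controls, and had -0.08 in TOV21G. KRT8, an epithelial keratin, had a difference of -0.41 (adjusted p = 0.0483). Both calls were lost without any 1 of 10 of the 12 libraries, with adjusted p up to 0.124 for PLIN3 and 0.147 for KRT8, and with the replicate number as a block (0.309 and 0.364). None of the 8 members was called in this comparison.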

How the results depend on the processing

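In CAOV3 305 genes were called, 116 with the replicate block and 507 by DESeq2; in TOV21G 72, against 8 with the line fitted alone, 13 with the block and 150 by DESeq2; for the difference between the lines 96, against 9 with the block and 212 by DESeq2. Members called in CAOV3 went from 2 to 1 with the block, and in TOV21G from 2 to 1 with TMM scaling, to 0 with TOV21G alone and to 0 with the block. The labels do not say whether a replicate number marks a shared day or batch. With the block LIPG had an adjusted p of 0.119 in CAOV3 and 0.0645 in TOV21G, and STARD4 0.216 in TOV21G. Leaving out 1 library at a time gave 172 to 344 genes in CAOV3, 24 to 136 in TOV21G, 40 to 146 for the difference and 14020 to 14575 between the untreated lines, and 1 to 2 members called in either line. Without 1 library MYLIP in CAOV3 (-0.01) ran from -0.04 to 0.02, and SOAT1's difference between the lines (0.01) ran from -0.03 to 0.04, with -0.01 without CAOV3 ascites replicate 3 or TOV21G control replicate 2. The causes were not tested. Beyond these, the members' values under the pseudocounts of 0.5 and 5, no filter, a minimum of 50, TMM scaling and edgeR kept their direction and side of the threshold, except STARD4 in TOV21G with TMM scaling. Fits of each line alone give no value for the difference or for the untreated lines. Depth limits LIPG in TOV21G, at 55 to 90 reads per library.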
